A study of Homo sapiens with 9 samples.

Results

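The aryl hydrocarbon receptor (AHR) complex and its CYP1 target genes were followed here as 8 of the 60649 genes in the count table: AHR, its partners ARNT and ARNT2, the repressor AHRR, the chaperones HSP90AB1 and PTGES3, and the targets CYP1A1 and CYP1B1. The rows were taken by gene symbol, and each symbol matched a single row. RNA sequencing was performed on MDA-MB-231, an established triple-negative human breast cancer cell line with the label mammary epithelial, in 3 groups of 3 libraries. The control group carried the PLKO-GFP vector and the other groups carried either of 2 short hairpin RNAs against AHR, labelled shAHR#2 and shAHR#3. All cells were grown in DMEM with serum and no AHR ligand is named in the labels, which give the treatment as proliferation. Hairpins were delivered by lentivirus and puromycin-resistant cells were pooled, so each group was a mixed population rather than a clone. The labels and the study's methods number the constructs differently, so which hairpin sequence belongs to which label was not settled and the labels' names are used.

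AHR is a ligand-activated transcription factor of the bHLH-PAS family that waits in the cytosol bound to HSP90 and the co-chaperone p23, the product of PTGES3. On binding a ligand it moves to the nucleus, pairs with ARNT and binds DNA at xenobiotic response elements, whose core is GCGTG. CYP1A1 and CYP1B1, which encode cytochrome P450 enzymes that oxidize polycyclic aromatic compounds and estrogens, are its best known targets, and AHRR is an induced repressor that competes for ARNT.

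Libraries held 17407688, 19509030 and 19370185 counts with PLKO-GFP, 19112459, 15991396 and 16187573 under shAHR#2, and 19436825, 19559744 and 20374460 under shAHR#3. Levels are given as CPM (counts scaled by TMM to a common library size), and replicate libraries differed beyond counting error by a common biological coefficient of variation of 2.96%. Nothing in the labels says that replicates were separate cultures, so p-values measure the spread between these libraries, which may be technical. In such bulk samples fewer expressing cells and less RNA per cell cannot be told apart.

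The cell line label was checked against marker genes. All 4 mesenchymal and all 4 keratin markers were detected in every library. VIM, the most abundant, was at 2634 CPM in the control, 3875 under shAHR#2 and 3330 under shAHR#3, MSN at 686, 989 and 714, CD44 at 811, 692 and 578 and AXL at 1219, 1406 and 1260. The keratin markers summed to 888 to 939 CPM per control library, 1036 to 1081 under shAHR#2 and 1207 to 1296 under shAHR#3. Of 5 markers listed as low in triple-negative mesenchymal lines, PGR had no count and ESR1 had 0 to 4 counts per library, but ERBB2 was at 62.4 CPM in the control, 62.8 under shAHR#2 and 71.8 under shAHR#3. EPCAM was at 6.62, 6.06 and 6.11 CPM in the same order, and CDH1 at 0.909, 1.80 and 4.16 CPM. Of the 3 leukocyte markers CD3E had no count, and the 3 together summed to 0.508, 0.699 and 0.760 CPM in the control libraries, 4.93, 4.37 and 3.80 under shAHR#2 and 2.83, 2.81 and 2.59 under shAHR#3, with LYZ the most abundant. The 2 endothelial markers summed to 2.71, 2.15 and 2.33 CPM in the control, 10.1, 12.3 and 11.3 under shAHR#2 and 11.6, 12.9 and 13.1 under shAHR#3, nearly all of it from PECAM1, while CDH5 had no count in the control. The adipocyte and melanocyte markers ADIPOQ and MLANA had no count. The leukocyte and endothelial sums were thus higher in every library of both constructs than in any control library, a difference of the sums that was not tested, as was their part in the results.

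Of the 8 genes, 7 passed the filter on low counts, AHRR being the exception. With shAHR#2 against PLKO-GFP, all 7 tested genes were called at an adjusted p under 0.05 (edgeR quasi-likelihood test), 3 higher and 4 lower, in a comparison that called 65.8% of the 14274 genes tested, 32.6% higher and 33.2% lower. With shAHR#3 against PLKO-GFP, 6 of the 7 were called, 2 higher and 4 lower, where 54.4% of all genes were called, 26.9% higher and 27.5% lower. With shAHR#3 against shAHR#2, 7 of 7 were called, 4 higher and 3 lower, where 42.3% of all genes were called, 21.9% higher and 20.4% lower. The share of genes called was thus high in every comparison, and the sizes of the changes carry more information than the calls. The median log2 fold change of the 7 genes was -1.04 under shAHR#2, -0.44 under shAHR#3 and 0.19 between the constructs. Over all genes the medians were 0.00, 0.00 and 0.01, and the median absolute log2 fold changes were 0.325, 0.230 and 0.180. Each median of the 7 was the value of a single gene, ARNT2, CYP1B1 and AHR in that order. With members called in both directions, it does not describe a shared shift. The first and second comparison share their control libraries, so their values are given side by side.

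**Figure D1:**
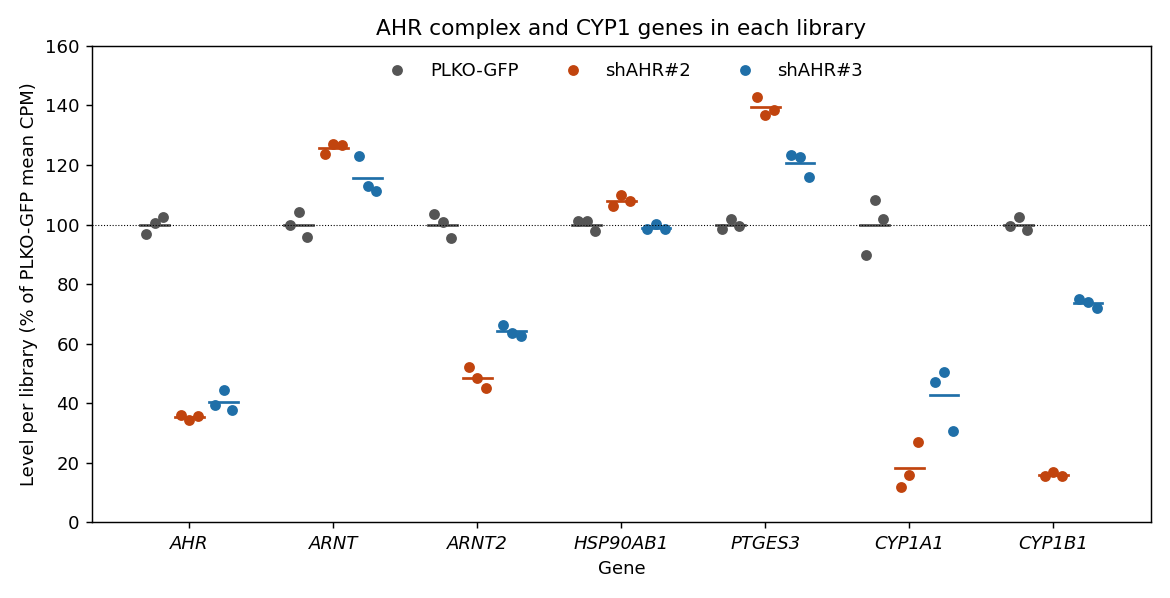
Level of each tested gene in each library (points) as a percentage of the PLKO-GFP mean in CPM, with group means as lines (n = 3 libraries each). AHR was at 35.3% and 40.5% with the 2 constructs, while CYP1B1 was at 16% under shAHR#2 and 73.7% under shAHR#3.

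AHR itself (ENSG00000106546.14, chr7:16916359-17346152 of GRCh38, plus strand) was counted 2022, 2368 and 2385 times in the control libraries, 792, 629 and 662 times under shAHR#2, and 900, 1019 and 912 times under shAHR#3. Every hairpin library lay below every control library, and the shAHR#3 libraries lay above the shAHR#2 libraries after scaling. The level of AHR was 35.3% ± 0.912 of the control under shAHR#2 and 40.5% ± 3.39 under shAHR#3 (SD, n = 3). The fitted log2 fold changes were -1.50 (95% confidence interval -1.60 to -1.40, n = 3 against 3) and -1.31 (-1.40 to -1.21), with adjusted p = 1.05e-25 and 4.95e-24 from edgeR. Among all genes tested, 5.70% had an absolute log2 fold change at least as large under shAHR#2, and 4.48% under shAHR#3. The difference between the constructs was small, 0.19 (0.09 to 0.30, adjusted p = 0.00283), and came to 0.13 and was not called when shAHR#3 replicate 2 was left out. A gene with exons overlapping AHR on the opposite strand, AC003075.4, had 5 to 21 counts per library, or 1.04% of the AHR counts in total.

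ARNT and ARNT2 encode the partners with which AHR binds DNA, and they moved in opposite directions. ARNT was at 46.7, 48.8 and 44.9 CPM in the control libraries, 57.9, 59.4 and 59.3 under shAHR#2 and 57.6, 52.9 and 52.0 under shAHR#3. Both knockdown groups lay above the control without overlap, while shAHR#2 and shAHR#3 came close to each other, at 57.9 and 57.6 CPM. The log2 fold changes were 0.33 (0.23 to 0.43, adjusted p = 4.06e-07) and 0.21 (0.11 to 0.31, adjusted p = 0.000445). The difference of -0.12 between the constructs (-0.22 to -0.02) had an adjusted p of 0.0469 and missed the threshold in 9 alternatives, DESeq2 and 6 runs without a single library among them.

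ARNT2 (chr15:80404350-80597933, plus strand), the paralog known for its role in the nervous system, was counted 704, 775 and 722 times in the control, 372, 289 and 273 times under shAHR#2 and 495, 476 and 491 times under shAHR#3. The groups did not overlap, the control being highest and shAHR#2 lowest. ARNT2 fell by 1.04 on the log2 scale under shAHR#2 (interval -1.18 to -0.90, adjusted p = 5.37e-16) and by 0.64 under shAHR#3 (-0.77 to -0.51, adjusted p = 8.52e-11), and the constructs differed by 0.40 (0.25 to 0.55, adjusted p = 2.07e-05). Within each library the number of ARNT2 reads per ARNT read, which does not depend on scaling, was 0.820 ± 0.0293 in the control, 0.316 ± 0.0269 under shAHR#2 and 0.455 ± 0.0109 under shAHR#3 (SD, n = 3). The 3 groups did not overlap. Each pair of groups gave an exact two-sided permutation p of 0.1, the smallest that 3 against 3 libraries allow.

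AHRR was close to undetected. Its counts were 1, 2 and 1 in the control libraries, 0, 0 and 2 under shAHR#2 and 2, 0 and 1 under shAHR#3. All 9 values were at or under the floor of 3 counts, so no fold is given and a difference was not detectable at this depth. The readthrough gene PDCD6-AHRR, which shares AHRR exons, had 0 or 1 count per library.

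HSP90AB1 encodes a constitutive cytosolic HSP90 that holds AHR ready to bind ligand, and it was the most abundant of the 8 genes per length. It was counted 38402 to 43465 times per control library, 36593 to 42523 times under shAHR#2 and 41068 to 43241 times under shAHR#3. The level was 108% ± 1.85 of the control under shAHR#2 and 99.0% ± 0.951 under shAHR#3 (SD, n = 3). The first value was a log2 fold change of 0.11 (0.06 to 0.16, adjusted p = 0.00013), and the second of -0.01 (-0.06 to 0.03, adjusted p = 0.640) was not called and its libraries overlapped the control. The constructs differed by -0.13 (-0.18 to -0.08, adjusted p = 5.01e-05). HSP90AA1 is a close paralog with 54699 to 67831 counts per library, and how reads matching both were counted is not given in the sources used here.

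PTGES3, which encodes the co-chaperone p23 that stabilizes the HSP90 and AHR complex, was at 594, 615 and 600 CPM in the control, 860, 824 and 835 under shAHR#2 and 743, 740 and 699 under shAHR#3. The groups were fully separated, shAHR#2 being highest and the control lowest. PTGES3 rose by 0.48 on the log2 scale (0.42 to 0.53, adjusted p = 3.95e-18) and 0.27 (0.22 to 0.33, adjusted p = 5.57e-11), to 139% and 121% of the control level. The difference between the constructs was -0.21 (-0.26 to -0.15, adjusted p = 3.71e-08). The processed pseudogene PTGES3P1 had 0.178% as many counts as PTGES3.

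CYP1A1 (ENSG00000140465.14, chr15:74719542-74725536, minus strand) is the target in which xenobiotic response elements were first worked out, so the copies of the core before its start are shown. The core GCGTG was searched on both strands in the 1500 bases before the CYP1A1 start in RefSeq's promoter table (GRCh38.p14), read from hg38. There were 10 copies, and 0.629% of the 35116 stretches of this length before a listed start held as many, against 72.9% with at least 1 copy. The 10 copies are listed with 7 bases on either side, each written on the strand that reads GCGTG, with the core in capitals.
CYP1A1, 1385 bases before the start, chr15:74726902-74726920, plus strand: tgtatttGCGTGcctagct
CYP1A1, 1260 bases before the start, chr15:74726777-74726795, minus strand: gccacagGCGTGgaccgaa
CYP1A1, 1204 bases before the start, chr15:74726721-74726739, plus strand: taggtctGCGTGtggcttc
CYP1A1, 1115 bases before the start, chr15:74726632-74726650, plus strand: gcgcgcgGCGTGgggttgg
CYP1A1, 1059 bases before the start, chr15:74726576-74726594, minus strand: ccccctcGCGTGactgcga
CYP1A1, 986 bases before the start, chr15:74726503-74726521, plus strand: aggcgttGCGTGagaagga
CYP1A1, 898 bases before the start, chr15:74726415-74726433, plus strand: ctagcttGCGTGcgccggc
CYP1A1, 503 bases before the start, chr15:74726020-74726038, plus strand: ccggctcGCGTGagaagcg
CYP1A1, 400 bases before the start, chr15:74725917-74725935, plus strand: acgctggGCGTGcagatgc
CYP1A1, 57 bases before the start, chr15:74725574-74725592, minus strand: gaaggagGCGTGgccacac
The 300 bases with the highest number of copies, chr15:74726499-74726798 of GRCh38 (minus strand, 971 to 1270 bases before the start), held 5 copies, and 1.76% of all starts had a 300-base stretch with as many or more. The stretch overlapped no annotated exon in GENCODE release 44. They are written 5′ to 3′ on the gene's strand, with GCGTG and its reverse complement CACGC in capitals.
CYP1A1 upstream: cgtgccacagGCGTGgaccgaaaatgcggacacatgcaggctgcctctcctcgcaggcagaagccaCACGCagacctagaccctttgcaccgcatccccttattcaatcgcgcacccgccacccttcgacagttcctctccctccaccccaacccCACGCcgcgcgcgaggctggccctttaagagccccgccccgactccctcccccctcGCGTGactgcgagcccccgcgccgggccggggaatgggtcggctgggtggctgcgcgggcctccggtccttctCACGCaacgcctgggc
The longer form TNGCGTG was found 5 times in the 1500 bases, and 0.0228% of all stretches held as many, against 23.2% with at least 1 copy. A match to these letters is a description of the sequence and not a measured binding site. The core contains CG, and the stretches compared, here and below, were not matched for base composition.

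In the 250 bases before a listed start, 32.2% of the 35116 windows held the core on either strand. Of the other members with a listed start AHR and ARNT had 0 copies there, AHRR had 1 and 2 at its 2 starts, HSP90AB1 had 1 at each of 3 starts and PTGES3 had 1, and CYP1A1 itself had only 1. In the 1500 bases before the start AHR had 0 copies and HSP90AB1 3 at each start (30.9% of stretches held as many). ARNT had 5 (10.6%), PTGES3 6 (5.90%) and AHRR 4 and 8 (18.5% and 1.80%). The copies of the chaperone genes lay in windows that overlapped annotated exons of the same gene in GENCODE release 44. These copies are written in the same way.
HSP90AB1, 215 bases before the start, chr6:44245972-44245990, minus strand: ggaggccGCGTGacgatgc
HSP90AB1, 12 bases before the start, chr6:44247082-44247100, minus strand: agctactGCGTGccccaag
HSP90AB1, 28 bases before the start, chr6:44247908-44247926, plus strand: cctcctcGCGTGgtcctgg
PTGES3, 54 bases before the start, chr12:56688327-56688345, plus strand: ccgccgcGCGTGcgcagtc

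CYP1A1 was a low-abundance transcript, counted 71, 97 and 90 times in the control libraries, 10, 11 and 19 times under shAHR#2 and 41, 44 and 28 times under shAHR#3. Every shAHR#2 library was below every shAHR#3 library, and those were below every control library. The level was 18.2% ± 7.74 of the control under shAHR#2 and 42.7% ± 10.6 under shAHR#3 (SD, n = 3), with log2 fold changes of -2.47 (-2.99 to -1.95, adjusted p = 1.02e-10) and -1.23 (-1.66 to -0.81, adjusted p = 4.39e-06). The constructs differed by 1.24 (0.64 to 1.84, adjusted p = 0.000725). The intervals of CYP1A1 were wider than those of the other members, and its counts of 10 to 97 per library were the lowest of the tested members.

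CYP1B1 (ENSG00000138061.12, chr2:38066973-38109902, minus strand) was counted 2976, 3461 and 3268 times in the control, 491, 440 and 414 times under shAHR#2 and 2463, 2443 and 2486 times under shAHR#3. The shAHR#2 libraries stood far below the rest, and the shAHR#3 libraries lay between them and the control with no overlap. CYP1B1 was at 16% ± 0.683 of the control under shAHR#2 and 73.7% ± 1.61 under shAHR#3 (SD, n = 3). The log2 fold change was -2.65 (-2.74 to -2.56, adjusted p = 3.52e-35) under shAHR#2 and -0.44 (-0.51 to -0.37, adjusted p = 5.78e-14) under shAHR#3. CYP1B1 differed by 2.21 between the constructs (2.12 to 2.30, adjusted p = 3.96e-31), at rank 2 of 14274 genes by p-value. Its antisense neighbour CYP1B1-AS1 had 16, 11 and 20 counts in the control, 4, 5 and 3 under shAHR#2 and 14, 9 and 16 under shAHR#3. RMDN2, which overlaps CYP1B1 exons on the opposite strand, had 65, 70 and 92 counts in the control, 59, 41 and 42 under shAHR#2 and 74, 64 and 63 under shAHR#3, and so weighed most against CYP1B1 under shAHR#2. Whether the counting used strand is not given in the sources used here, so reads of overlapping antisense genes cannot be told apart with certainty.

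**Figure D2:**
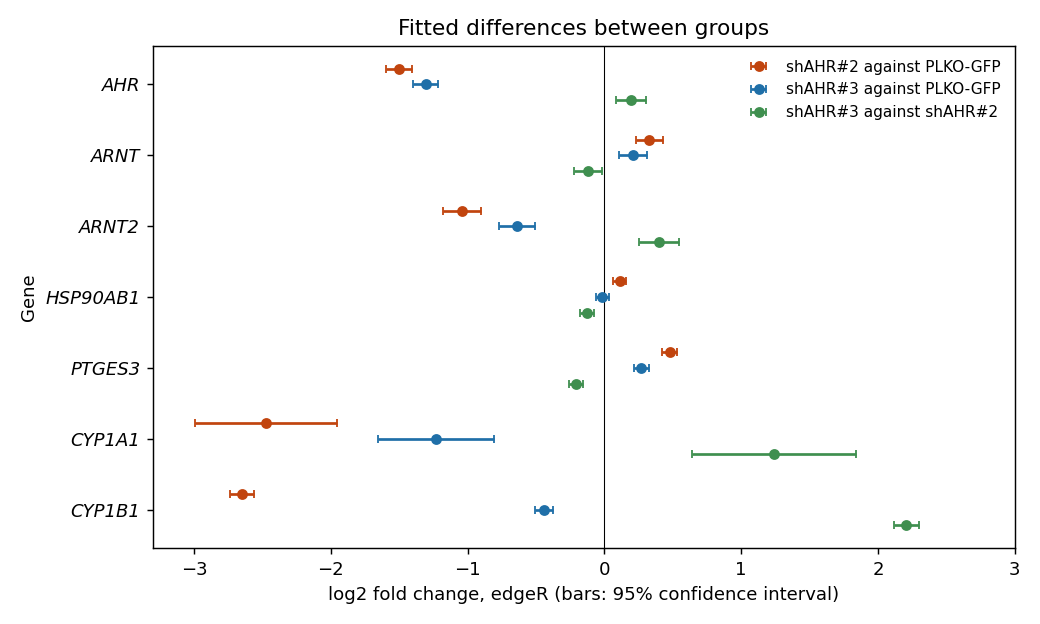
Fitted log2 fold change of each tested gene in the 3 comparisons (points) with 95% confidence intervals (bars, n = 3 libraries per group). CYP1B1 had the largest difference between the constructs (2.21), and HSP90AB1 under shAHR#3 (-0.01) was the single interval against PLKO-GFP that spanned 0.

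The ratio of CYP1B1 to AHR transcripts within a library does not depend on scaling, though it does not tell which of the genes differed. CYP1B1 reads per AHR read were 1.47, 1.46 and 1.37 in the control libraries, 0.620, 0.700 and 0.625 under shAHR#2, and 2.74, 2.40 and 2.73 under shAHR#3. The ratio was thus below the control under shAHR#2 and above it under shAHR#3, in every library. The group means were 1.43 ± 0.0559, 0.648 ± 0.0445 and 2.62 ± 0.193 (SD, n = 3), and the exact two-sided permutation p of each pair of groups was 0.1, the smallest possible. CYP1A1 reads per CYP1B1 read were 0.0265 ± 0.00228 in the control, 0.0304 ± 0.0136 under shAHR#2 and 0.0153 ± 0.00357 under shAHR#3 (SD, n = 3). The control libraries were at 0.0239, 0.0280 and 0.0275. Those of shAHR#2 were at 0.0204, 0.0250 and 0.0459, so its higher mean rested on replicate 3, which had 19 CYP1A1 counts. For that ratio shAHR#2 and the control overlapped (exact permutation p = 0.9), whereas shAHR#3 was below both.

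**Figure D3:**
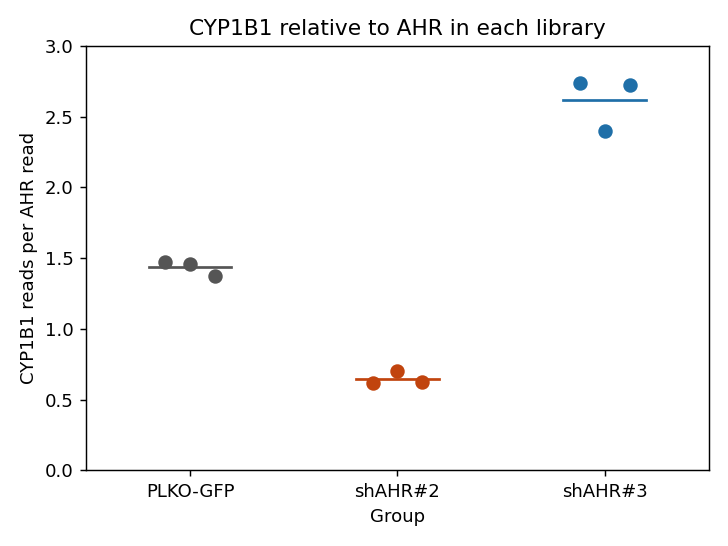
CYP1B1 reads per AHR read in each library (points) and group mean (line), n = 3 libraries per group. The shAHR#3 libraries lay at 2.40 to 2.74, the control libraries at 1.37 to 1.47 and the shAHR#2 libraries at 0.620 to 0.700.

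Levels of different genes were compared per length, as RPKM over the union of each gene's exons. In the control the order was HSP90AB1 at 720 ± 14.2, PTGES3 at 177 ± 3.23, CYP1B1 at 28.0 ± 0.619, AHR at 14.6 ± 0.413, ARNT at 7.26 ± 0.304, ARNT2 at 4.96 ± 0.210 and CYP1A1 at 1.33 ± 0.126 RPKM (SD, n = 3). No neighbours in this order overlapped, AHRR being last at 0.00728 RPKM. The levels depend on the length used: over the canonical transcript alone PTGES3 was at 318, CYP1B1 at 32.3, AHR at 18.9 and AHRR at 0.0122 RPKM in the control, with the order unchanged. Under shAHR#2 the receptor fell to 5.16 ± 0.133 and CYP1B1 to 4.47 ± 0.191 RPKM, both below ARNT at 9.13 ± 0.132. Under shAHR#3 CYP1B1 kept its place after PTGES3 at 20.6 ± 0.451 RPKM, followed by ARNT at 8.40 ± 0.469 and AHR at 5.92 ± 0.495 RPKM. ARNT, which was below AHR in the control, was above it in both knockdown groups.

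**Figure D4:**
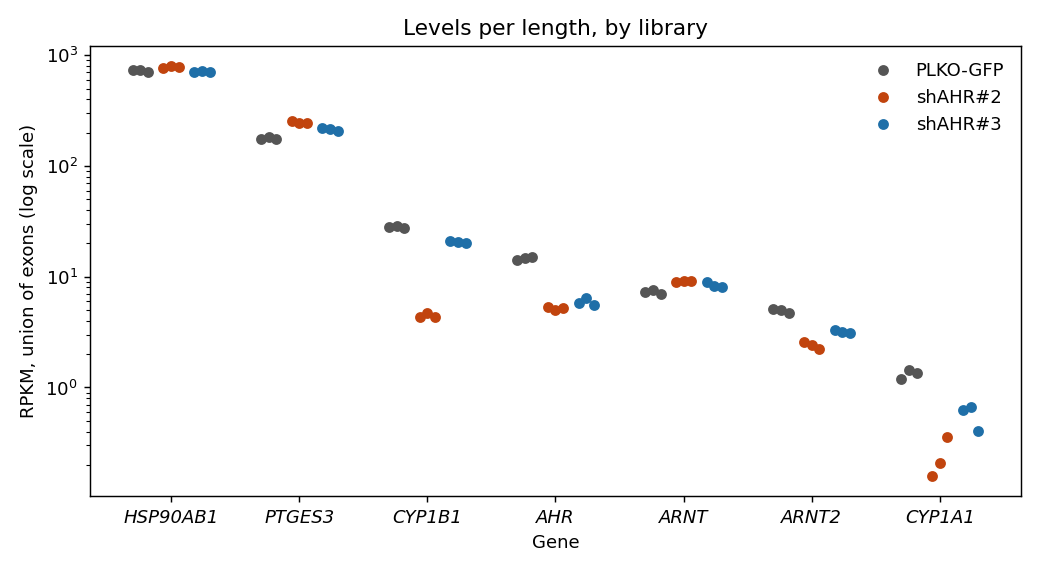
RPKM of each tested gene in each library on a log axis, by group (n = 3 libraries each). AHR was above ARNT in the control libraries (14.6 against 7.26 RPKM) and below it with both constructs.

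Across the 9 libraries log2 CPM of AHR had a Pearson correlation of 0.948 with ARNT2, 0.888 with CYP1A1 and 0.713 with CYP1B1, and of -0.916 with ARNT, -0.923 with PTGES3 and -0.485 with HSP90AB1. These are descriptions of 9 libraries in 3 groups, so they mostly restate the group means. The genes most like each of 3 members were taken from 11832 tested genes whose mean log2 CPM reached 1. For AHR they were VAMP4, CNN3 and PABIR2 (r = 0.997, 0.997 and 0.996). VAMP4, a SNARE protein of the trans-Golgi network, fell by 1.18 and 1.03 on the log2 scale under shAHR#2 and shAHR#3, CNN3 by 0.48 and 0.41, and PABIR2 by 0.59 and 0.55. For CYP1A1 they were DIAPH2, ZNF512 and DUSP22 (r = 0.989, 0.986 and 0.985), with DIAPH2 falling by 0.76 and 0.46. For CYP1B1 they were EXT1, ATP1B1 and CPT1C, with log2 fold changes of -0.98, -0.50 and -2.88 under shAHR#2 and -0.13, -0.06 and -0.55 under shAHR#3.

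Other genes of the pathway were taken from 4 lists. Of 5 receptor chaperones and cytosolic partners, all tested, 4 were called higher and 0 lower under shAHR#2, 3 and 0 under shAHR#3, and 0 and 3 with shAHR#3 against shAHR#2, with median log2 fold changes of 0.17, 0.11 and -0.06. Over all genes 32.6% were called higher and 33.2% lower under shAHR#2, 26.9% and 27.5% under shAHR#3, and 21.9% and 20.4% between the constructs. The kinase-loading co-chaperone CDC37 rose by 0.40 and 0.18 with the 2 constructs, the tyrosine kinase SRC by 0.22 and 0.26, and HSP90AA1, the stress-inducible HSP90, by 0.17 and 0.11. The SRC call under shAHR#2 (adjusted p = 0.00446) was lost without shAHR#2 replicate 2.

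Of 11 nuclear cofactors and receptor turnover genes, all tested, 5 were called higher and 2 lower with either construct, and 2 higher and 3 lower between the constructs, with medians of 0.05, 0.10 and 0.00. These 7, 7 and 5 calls stand beside 65.8%, 54.4% and 42.3% of all genes called. NRIP1, a corepressor of nuclear receptors that is also a coregulator of AHR, rose from 15.3 CPM to 29.3 and 22.8 (log2 fold changes 0.94 and 0.58). CUL4B, the scaffold of a ubiquitin ligase that AHR can join, fell by 0.46 and 0.45 with the 2 constructs. The coactivator NCOA1 fell by 0.53 under shAHR#2 and by 0.16 under shAHR#3, and the latter call (adjusted p = 0.0144) was lost without shAHR#3 replicate 2.

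Of 12 other bHLH-PAS genes 8 were tested, and HIF3A, NPAS3, NPAS4 and SIM1 fell below the filter. The called counts were 2 higher and 4 lower under shAHR#2, 2 and 2 under shAHR#3, and 1 and 3 between the constructs, with medians of -0.10, 0.00 and -0.07. In total 6, 4 and 4 of the 8 were called, near the 65.8%, 54.4% and 42.3% called among all genes. HIF1A, the hypoxia factor that shares ARNT with AHR, rose from 678 CPM to 955 and 912 (0.49 and 0.43), and the circadian factor CLOCK fell from 144 CPM to 112 and 107 (-0.36 and -0.43). SIM2 had at most 34 counts and was called lower under shAHR#2 (-1.01, adjusted p = 0.00622), a call lost without shAHR#2 replicate 2, while its value of -0.51 under shAHR#3 was not called.

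Of 16 other AHR target genes 12 were tested, and CYP1A2, UGT1A1, UGT1A6 and SERPINB2 fell below the filter. Under shAHR#2 4 were called higher and 5 lower, under shAHR#3 5 and 4, and between the constructs 5 and 4, with medians of -0.02, 0.03 and 0.05. That made 9 of 12 in each comparison, where 65.8%, 54.4% and 42.3% of all genes were called, nearly evenly split by direction. With DESeq2 the genes of this list called lower came to 4 under shAHR#2 and 3 between the constructs, the list's other counts being the same. ALDH3A1, an aldehyde dehydrogenase, rose from 3.50 ± 0.252 CPM to 28.2 ± 0.564 and 18.7 ± 1.17 (SD, n = 3), log2 fold changes of 3.01 and 2.42. EREG, which encodes the EGF receptor ligand epiregulin, rose by 1.59 and 1.45, and the actin-severing protein gene SCIN by 1.13 and 2.34. These 3 genes with the largest average change were higher with AHR knocked down, in contrast to CYP1A1 and CYP1B1. NQO1 and TIPARP, singled out after their values were seen, were also in this list: NQO1 fell from 301 CPM to 114 and 184 (log2 fold changes -1.40 and -0.71), and TIPARP was at 0.04 under shAHR#2, not called (adjusted p = 0.344), and -0.18 under shAHR#3 (adjusted p = 0.000245). Between the constructs NQO1 differed by 0.69 (adjusted p = 1.89e-20) and TIPARP by -0.22 (adjusted p = 2.11e-05). The list therefore held genes in both directions.

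**Figure D5:**
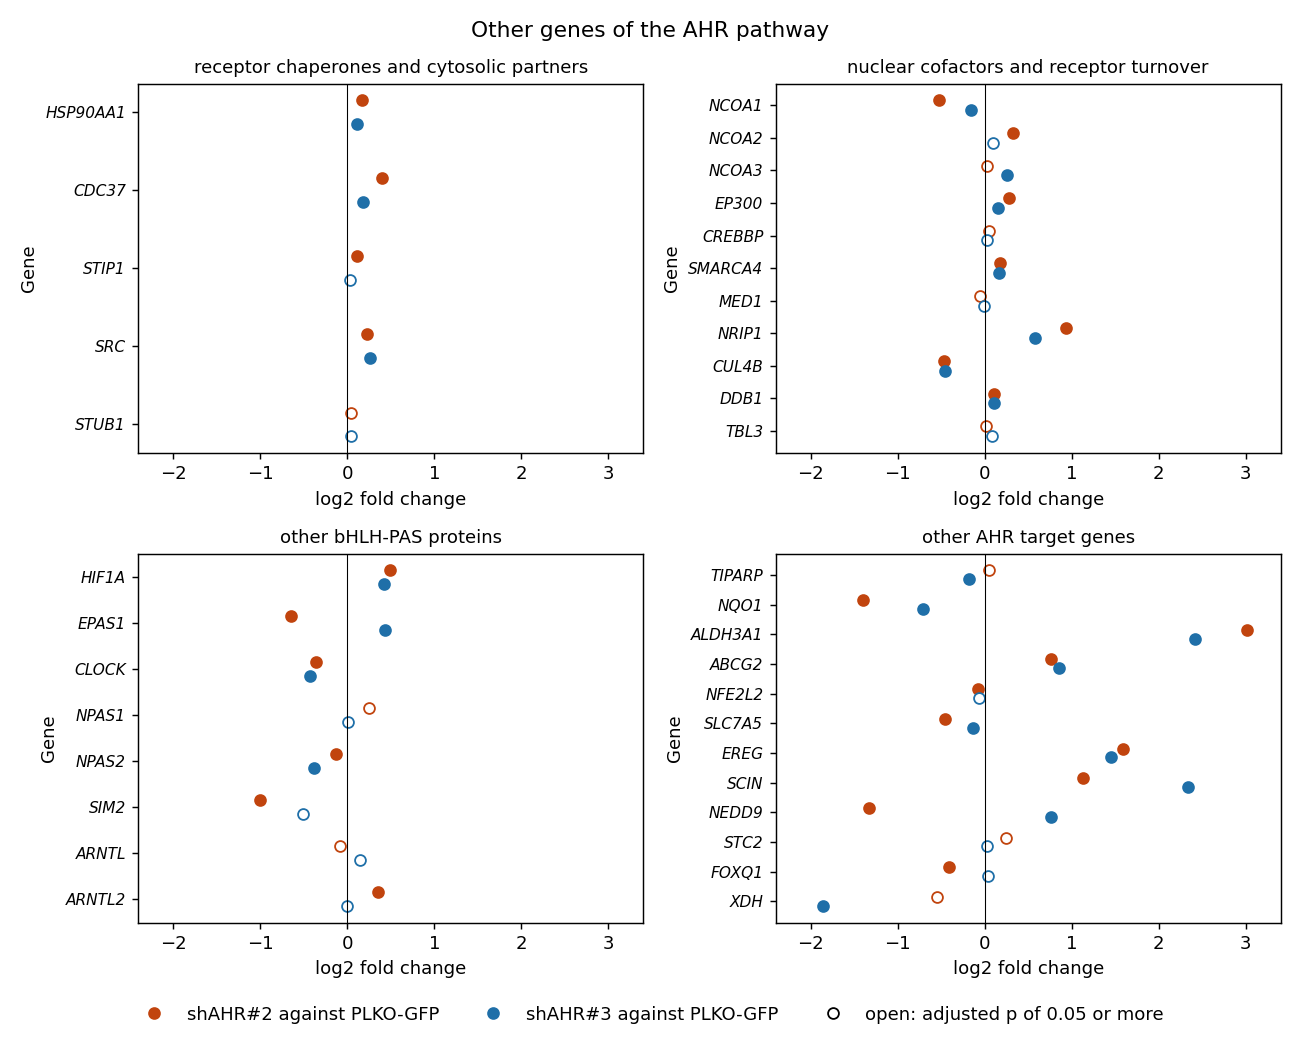
Log2 fold change of each tested gene of the 4 lists under shAHR#2 and shAHR#3 against PLKO-GFP, filled where the adjusted p was under 0.05 and open otherwise. ALDH3A1 had the largest rise (3.01 under shAHR#2), and EPAS1 and NEDD9 were called in opposite directions with the 2 constructs. TIPARP, FOXQ1, ARNTL and ARNTL2 also lay on opposite sides of 0 but were not called with both.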

How the data were processed

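The authors deposited a table of raw integer counts for 60649 genes from stranded mRNA libraries sequenced from a single end. The submitters' processing notes name FastQC, STAR, featureCounts and Subread, and GRCh38.p13 as the build; versions, annotation release and strand setting are not given in the sources used here. Counts were analysed with R 4.3.3 and edgeR 4.0.16 (filterByExpr with a minimum count of 10 and minimum total of 15, TMM, glmQLFit and glmQLFTest), with 1 fit to 9 libraries and Benjamini-Hochberg adjustment over the 14274 genes tested, which held 99.9% of counts. Confidence intervals are at 95% and cover the spread between libraries. Replicate pairs differed more than counting error allows, with chi-square values of 1.75 to 4.12 for each degree of freedom.

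The members and lists were chosen with earlier results of these data known, and 1 list gene is not reported here and is left out of the list counts. All 8 members are named, and of each list up to 3 genes tested, called in at least 1 comparison and with the largest average log2 fold change of the 2 constructs, its sign dropped after averaging. Genes moving in opposite directions rank low by this, and by averaged absolute values EPAS1 would have been named in place of CLOCK. Likeness used log2 CPM with a prior count of 2. Of the members 6 matched RefSeq's promoter table, with 9 windows; CYP1B1 and ARNT2 are named only. Exon lengths and positions are from GENCODE release 44, in which 60507 of 60649 identifiers matched without version. Alternatives were DESeq2 1.42.0, its size factors, other filters and thresholds, only the groups compared, a block and leaving out each library; the ratios without each library and the alternatives for 4 singled out genes were added after the data were seen. Scripts were tested on simulated data. Hairpin sequences and the study's other experiments were not used here.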

Additional observations from a re-analysis of the deposited data

Results flagged for a closer look

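The effects of the 2 constructs were compared directly, with shAHR#3 against shAHR#2 in the same edgeR fit, and the genes below differed at an adjusted p under 0.05. Among the members the log2 differences were 2.21 for CYP1B1, 1.24 for CYP1A1, 0.40 for ARNT2 and 0.19 for AHR, all higher under shAHR#3, and -0.21 for PTGES3, -0.13 for HSP90AB1 and -0.12 for ARNT, lower under shAHR#3. The AHR difference came to 0.13 and was not called without shAHR#3 replicate 2, and the ARNT difference missed the threshold in 9 alternatives. Of the named list genes, SCIN differed by 1.20, ALDH3A1 by -0.59, NCOA1 by 0.37, NRIP1 by -0.36, CDC37 by -0.22, EREG by -0.14, HIF1A by -0.067 and HSP90AA1 by -0.061. The HSP90AA1 difference (adjusted p = 0.0458) was not called in 8 alternatives and the HIF1A difference (adjusted p = 0.0272) in 4, besides the stricter thresholds.

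NQO1 and TIPARP, which were singled out from the target list after their values were seen, differed by 0.69 and -0.22. NEDD9 and EPAS1, also singled out after their values were seen, changed in opposite directions with the 2 constructs. NEDD9, a scaffold protein of focal adhesions, had log2 fold changes of -1.33 under shAHR#2 (adjusted p = 3.38e-13) and 0.76 under shAHR#3 (adjusted p = 9.20e-10), a difference of 2.08 (adjusted p = 3.09e-19). EPAS1, which encodes the hypoxia factor HIF-2 alpha, had -0.64 (adjusted p = 3.70e-18) and 0.43 (adjusted p = 4.80e-14), a difference of 1.08 (adjusted p = 1.75e-24). What sets the constructs apart was not tested.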

How the results depend on the processing

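The replicate block gave 7 members called for shAHR#2 against PLKO-GFP, 6 for shAHR#3 and 7 between the constructs, as did the fit without it. It called 65.9%, 55.0% and 42.8% of all genes. Deviations of same-numbered libraries had small positive correlations of 0.003 to 0.058, against -0.068 to 0.023 for libraries of different number. Deviations were taken from means of 3 libraries, which makes the kinds of pair offset each other. These small values therefore cannot settle whether the numbers pair the libraries. The numbers are not said to mark a shared culture or day, so the block was kept as an alternative. Requiring also an absolute log2 fold change of at least 1 left 4, 2 and 2 members, and 11.8%, 6.73% and 3.71% of all genes. Leaving out each library gave 7 to 7, 6 to 6 and 5 to 7 members, and 60.9% to 65.9%, 49.9% to 53.8% and 36.8% to 41.7% of all genes. A mean of at least 50 counts gave 6, 5 and 6, because CYP1A1 was not tested there, and 73.0%, 62.0% and 49.9% of the 11320 genes tested. The least stable call was the log2 fold change of ARNT, shAHR#3 against shAHR#2, which missed the threshold in 9 alternatives besides the 2 stricter thresholds, with values of -0.09 to -0.13 and adjusted p of 0.0510 to 0.171. Among 354 member fold changes under the alternatives none changed sign. Of 609 fold changes of the 12 list genes named by rule 3 changed sign, none of them called: the log2 fold change of SRC, shAHR#3 against shAHR#2, was -0.036 without shAHR#2 replicate 3, -0.019 without shAHR#3 replicate 3 and at most 0.105 with a library left out. Likewise the log2 fold change of CUL4B, shAHR#3 against shAHR#2, was -0.0070 without shAHR#2 replicate 2 and at most 0.038. Of 204 for NQO1, TIPARP, NEDD9 and EPAS1, recomputed after the values were seen, none changed sign and calls were lost only with the added fold change threshold. Each group has 3 libraries and CYP1A1 has few counts, which limits its precision, and AHRR was too low to compare.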
